A study of Mus musculus with 16 samples.

Results

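DNA repair and damage signalling genes were read across 16 bead arrays of sorted mouse hematopoietic stem cell (HSC) fractions. The group held 47 listed genes, arranged here by textbook repair pathway: 10 of base excision repair, 11 of homologous recombination, 8 of the Fanconi anemia pathway, 3 of mismatch repair, 5 of nucleotide excision repair, 4 of non-homologous end joining and 6 of damage signalling. A gene was represented by its brightest probe, and 43 of the 47 genes had a probe. Of these, 38 passed a filter for signal above background on at least 4 arrays and were tested among 11849 genes and unnamed probes. Among the 38, 33 lay above background on all 16 arrays. Neil3 did so on 14, Nbn on 13, Bard1 on 10, Msh3 on 7 and Xrcc5 on 4 arrays, and a gene that passes through its higher group alone is bound to differ. Neil1, Ogg1, Palb2, Fancg and Ercc2 were measured below that filter, and Fanca, Fance, Atr and Mdc1 had no probe analysed here.

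The transgenic genotype was CD70TG, labelled IFNgamma-/-xCD70TG, a mouse with a transgene for CD70, the ligand of the TNF receptor family member CD27. Its control was IFNgamma-/-, so both genotypes lacked the cytokine interferon gamma, and the strain was C57Bl/6. The fractions carried the labels CD34+ (short-term HSC) and CD34- (long-term HSC) within lineage-negative c-Kit+ Sca-1+ bone marrow cells. The 4 groups were CD70TG CD34-, control CD34-, CD70TG CD34+ and control CD34+, with 4 arrays each, and an array held RNA from 2 pooled mice. The labels name neither the promoter of the transgene nor the age of the mice, and they describe an identical CD34-Flt3- gate for the pair of fractions. Transcript levels of Cd34 itself were 9.44 ± 0.17 in CD34+ and 9.54 ± 0.16 in CD34- CD70TG arrays, and 9.47 ± 0.22 in CD34+ and 9.64 ± 0.09 in CD34- control arrays (SD, n = 4 each), with no difference past the test, so the fractions are named by their labels only. No probe for Kit or Ly6a (Sca-1) was analysed. Values are used on the log2-like scale of the deposit, so that differences below are differences on that scale, and a level was not compared between genes.

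Cells meet DNA damage with dedicated pathways. Base excision repair removes oxidised, deaminated or lost bases, nucleotide excision repair cuts out bulky lesions, and mismatch repair corrects copying errors. Breaks through both strands are joined directly by end joining or copied from the sister chromatid by homologous recombination, a route used mainly once DNA has been replicated, and the Fanconi anemia pathway unhooks crosslinks between the strands and feeds into recombination. In blood, inherited loss of the Fanconi pathway leads to bone marrow failure, and quiescent stem cells are known to rely more on end joining than cycling progenitors do. Many recombination, Fanconi and checkpoint genes are known to be transcribed together with the cell cycle.

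Among the 38 tested genes, most called rises in CD70TG HSC fractions belonged to recombination, Fanconi and checkpoint genes (13 of 16 in CD34- and 11 of 14 in CD34+ cells). These classes held 10, 5 and 4 of the 38 tested genes, with checkpoint genes counted as damage signalling. Both counts include Bard1, above background on 4 of 4 CD70TG and 0 of 4 control CD34- arrays. In CD34+ cells it was so on 4 of 4 CD70TG and 2 of 4 control arrays, so it passed the filter through its higher group. Among the 38, no mismatch (3 tested) or nucleotide excision repair gene (4 tested) was called on its brightest probe. Some genes of these pathways outside the list were called, as was another Msh3 probe in CD34- cells. With so few genes, and beside the shares of all tested genes that follow, the lack of calls is no result about these pathways. In CD34- cells 16 of the 38 tested genes rose in CD70TG mice and 3 fell, where 16% of all tested genes rose and 11.8% fell. The 16 that rose make 42.1% of the 38. In CD34+ cells 14 of the 38 rose (36.8%) and 0 fell, against 7.57% higher and 10.6% lower among all tested genes. A call here means a limma adjusted p under 0.05 (Benjamini-Hochberg over all tested genes). At an unadjusted p under 0.05, 18 were higher and 4 lower in CD34- cells, and 19 were higher and 1 lower in CD34+ cells. No share of all tested genes is given for unadjusted p, here or below, so these counts cannot be called unusual. The median difference over the 38 was 0.22 in CD34- and 0.21 in CD34+ cells, beside 0.02 and 0.02 over all tested genes. Arrays of the genotypes did not overlap, with CD70TG higher, for 16 of the 38 in CD34- cells and 15 of the 38 in CD34+ cells, against 13.4% and 8.6% of all tested genes, and with CD70TG lower for 1 and 1, against 9.66% and 12.8%.

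The same 13 genes rose in both fractions: Neil3 and Ung of base excision repair, Brca1, Bard1, Rad54l, Mre11a and Blm of homologous recombination, Brip1, Fancc, Fancd2, Fanci and Fancl of the Fanconi pathway, and Chek1 of damage signalling. Chek2, Lig3 and Nbn were called in CD34- cells and not in CD34+ cells, Apex1 was called in CD34+ cells and not in CD34- cells, and Trp53bp1, Xrcc5 and Xrcc6 were lower in CD34- cells. For none of these did the test of the difference between fractions reach 0.05 after adjustment. The remaining 18 tested genes were called in neither fraction. By pathway, the rises in CD34- cells numbered 5 of 5 tested for Fanconi, 6 of 10 for recombination, 3 of 8 for base excision, 2 of 4 for signalling and 0 for mismatch repair (3 tested), nucleotide excision (4 tested) and end joining (4 tested). In CD34+ cells they numbered 5 of 5, 5 of 10, 3 of 8, 1 of 4 and again 0 in the 3 other pathways. At an unadjusted p under 0.05, no gene of those 3 pathways was higher in CD34- cells and 1, Xpc, was higher in CD34+ cells.

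**Figure D1:**
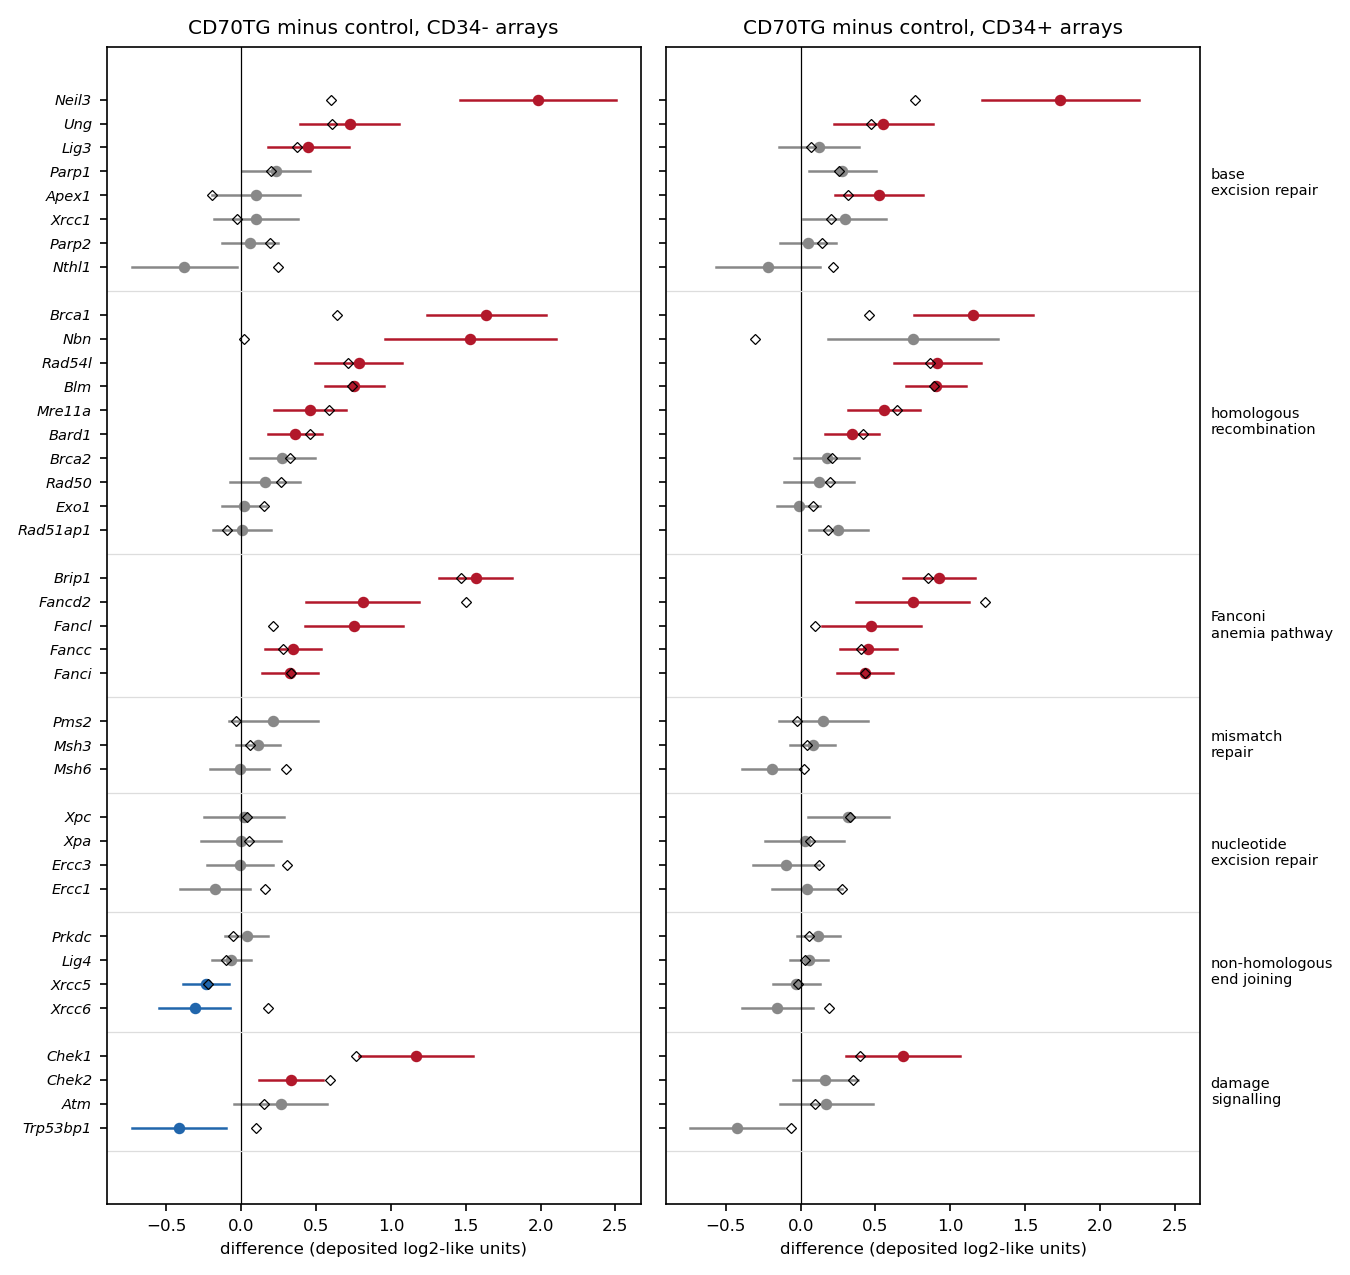
Difference on the log2-like scale (CD70TG minus control) with its 95% confidence interval for each of the 38 tested genes, ordered by pathway, in CD34- and in CD34+ cells, with red for genes called higher, blue for lower and grey for not called, and open diamonds for the difference with the probe discordance index in the fit, an array-to-array measure taken from genes with 2 probes. Points of the Fanconi genes all lie right of 0 in both fractions, from 0.33 for Fanci to 1.57 for Brip1 in CD34- cells, while the mismatch and nucleotide excision genes lie around 0.

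Other gene lists moved with these calls. The counts here and those of the markers below stand beside 16% higher and 11.8% lower among all tested genes in CD34- cells. In CD34+ cells those shares were 7.57% and 10.6%. Genes of DNA replication in S phase rose in 23 of 33 tested cases and fell in 1 in CD34- cells (median 0.60), and rose in 19 and fell in 1 in CD34+ cells (median 0.55). Mitotic genes rose in 19 of 20 in CD34- cells (median 1.33) and 20 of 20 in CD34+ cells (median 1.27). The mean level of the mitotic list was 9.73 ± 0.12 in CD70TG and 8.46 ± 0.04 in control CD34- arrays, and 9.86 ± 0.07 in CD70TG and 8.61 ± 0.11 in control CD34+ arrays (SD, n = 4). Beside the pathway medians of 0.41 for recombination and 0.75 for Fanconi genes in CD34- cells, the mitotic median was the larger. Whether the repair genes moved apart from these cycle genes was not tested.

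Cell composition markers moved as well. Markers of HSC (Hoxb5, Esam, Ctnnal1, Slamf1 among them) fell in 6 of 12 tested genes in CD34- and 7 of 12 in CD34+ cells, and rose in 0. Myeloid granule genes such as Mpo and Ctsg rose in 7 of 8 and 6 of 8. B lymphoid markers fell in 4 of 4 tested genes in CD34- cells (Cd79a, Cd79b, Ebf1 and Vpreb1, median -0.54) and in 2 of 4 in CD34+ cells (Cd79b and Vpreb1, median -0.46), and 0 of these calls remained with the index described below. Their mean level ranged from 7.60 to 7.98 in CD70TG and 8.29 to 8.56 in control CD34- arrays, and from 7.31 to 7.48 in CD70TG and 7.45 to 8.68 in control CD34+ arrays, and Pax5 lay below background on every array. Of 4 T and NK cell markers, 1 (Nkg7) rose in CD34- cells and 1 (Klrb1c) fell in CD34+ cells, and of 4 erythroid markers, 1 (Tfrc) rose in CD34+ cells. Monocyte and macrophage markers rose in 10 of 13 in CD34- cells and 3 of 13 in CD34+ cells. Their mean level ranged from 8.93 to 9.20 in CD70TG and 7.78 to 7.96 in control CD34- arrays, and from 7.32 to 7.59 in CD70TG and 7.17 to 7.25 in control CD34+ arrays. Of the 15 macrophage markers with a probe, 2 (Ccr2, Cd5l) lay below background on every array of the CD70TG CD34- group and 5 (C1qc, Ccr2, Fcgr1, Hmox1, Cd5l) on every array of the CD70TG CD34+ group. In sorted bulk pools, more RNA per cell and more cells with the transcript cannot be told apart. What part the markers had in the repair results was not tested.

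A shared array-to-array pattern also differed by genotype. For 1832 genes with exactly 2 usable probes, the leading component of the differences between their probes (51.9% of that variance, called the probe discordance index, SD of 1) averaged 0.70 ± 0.64 in CD70TG and -1.18 ± 0.34 in control CD34- arrays, and 0.90 ± 0.39 in CD70TG and -0.42 ± 0.70 in control CD34+ arrays (SD, n = 4). With the index as a covariate in the limma fit, 5 of the 38 genes remained called higher in CD34- cells (Brca1, Blm, Brip1, Fancd2 and Chek2), against 3.46% of all tested genes, and 0 lower, against 2.17%. In CD34+ cells 9 remained (Neil3, Brca1, Bard1, Rad54l, Mre11a, Blm, Brip1, Fancd2 and Fanci), against 3.36% of all tested genes, and 0 were lower, against 4.52%. The remaining calls of repair genes ended with it in the fraction concerned, and the passages below say so gene by gene. Because the index itself differed by genotype, this fit cannot fully tell index and genotype apart. An ended call therefore does not show that a difference came from the arrays, and the source of the index was not tested. The arrays CD70TG CD34- replicate 2 and control CD34+ replicate 4 stood nearest the other genotype on this index. With both left out, 15 of the 38 genes were called higher in CD34- and 16 in CD34+ cells. Among all 11849 tested features, 2032 and 1432 were then called higher, beside 1891 and 897 with all arrays. Picking both arrays on the index widens its gap between genotypes, so these counts do not test robustness.

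Of 10 tested homologous recombination genes, 6 rose in CD34- and 5 in CD34+ cells. Brca1, the breast cancer tumour suppressor that promotes recombination, read 8.51, 7.76, 8.61 and 8.15 in CD70TG CD34- arrays, against 6.45, 6.64, 6.92 and 6.48 in control CD34- arrays. It read 8.49, 8.19, 8.51 and 8.47 in CD70TG CD34+ arrays, against 7.36, 6.85, 7.06 and 7.77 in control CD34+ arrays. In both fractions every CD70TG array lay above every control array. The difference was 1.64 ± 0.19 (SE; adjusted p = 5.47e-06) in CD34- and 1.16 ± 0.19 (adjusted p = 0.000283) in CD34+ cells, and 0.64 and 0.46 with the index as a covariate. Bard1, the partner of Brca1 in its ubiquitin ligase, read 6.58, 6.65, 6.59 and 6.74 in CD70TG CD34- arrays, against 6.28, 6.46, 6.09 and 6.30 in control CD34- arrays. It read 6.59, 6.57, 6.80 and 6.71 in CD70TG CD34+ arrays, against 6.11, 6.35, 6.49 and 6.36 in control CD34+ arrays. The groups did not overlap, at levels close to background (10 of 16 arrays above it), and the differences were 0.36 ± 0.09 (adjusted p = 0.00422) and 0.34 ± 0.09 (adjusted p = 0.00882). Bard1 was not above background on any control CD34- array, so its CD34- difference is a bound, at least 0.23 against the background limits of those arrays, and it was above background on 2 of 4 control CD34+ arrays. Its CD34- call ended with the index in the fit (0.46, adjusted p = 0.0776).

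The MRN complex of Mre11a, Rad50 and Nbn binds broken ends and starts their resection. Mre11a, its nuclease, read 10.90, 11.04, 10.99 and 10.98 in CD70TG CD34- arrays, against 10.16, 10.77, 10.66 and 10.49 in control CD34- arrays. Its CD34+ values were 11.21, 11.28, 11.16 and 11.05 in CD70TG arrays, against 10.62, 10.66, 10.69 and 10.50 in control arrays. No CD70TG array fell within the control range in either fraction, and the differences were 0.46 ± 0.12 (adjusted p = 0.0059) and 0.56 ± 0.12 (adjusted p = 0.00204). Another kept probe of Mre11a differed by 0.37 and 0.48, and the CD34- call ended with the index in the fit (0.58, adjusted p = 0.093). Nbn, which recruits the kinase Atm, read 8.42, 7.26, 8.23 and 8.25 in CD70TG CD34- arrays, against 6.33, 6.37, 7.08 and 6.25 in control CD34- arrays. In CD34+ arrays Nbn read 8.25, 7.81, 8.36 and 8.42 in CD70TG mice, against 7.65, 7.13, 6.88 and 8.18 in control mice. The CD34- groups were apart and the CD34+ groups overlapped, with differences of 1.53 ± 0.27 (adjusted p = 0.000414) and 0.75 ± 0.27 (adjusted p = 0.0619). Once the index was in the fit, the Nbn difference in CD34- cells was 0.02 and the call ended. Nbn lay above background on 4 of 4 CD70TG and on 1 of 4 control CD34- arrays, so the control mean there is largely that of background. Rad50, which tethers the ends, differed by 0.16 ± 0.11 (adjusted p = 0.307) in CD34- and 0.12 ± 0.11 (adjusted p = 0.486) in CD34+ cells, so that the complex was not called as a whole.

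Among factors that act on the joined strands, Blm, the Bloom syndrome helicase that dissolves recombination intermediates, was separated by genotype in both fractions. It read 11.57, 11.33, 11.53 and 11.49 in CD70TG CD34- arrays, against 10.78, 10.65, 10.64 and 10.82 in control CD34- arrays. Values in CD34+ cells were 11.43, 11.69, 11.51 and 11.53 in CD70TG arrays, against 10.56, 10.77, 10.56 and 10.65 in control arrays. No array of either genotype crossed the gap, and the differences were 0.76 ± 0.09 (adjusted p = 1.23e-05) and 0.91 ± 0.09 (adjusted p = 2.07e-06), and another bright probe gave 0.72 and 0.76. Rad54l, a motor protein of strand invasion, read 10.15, 10.24, 10.09 and 10.30 in CD70TG CD34- arrays, against 9.75, 9.09, 9.43 and 9.39 in control CD34- arrays. It read 10.32, 10.49, 10.45 and 10.13 in CD70TG CD34+ arrays, against 9.47, 9.47, 9.12 and 9.68 in control CD34+ arrays. Again no values overlapped, with differences of 0.78 ± 0.14 (adjusted p = 0.000422) and 0.91 ± 0.14 (adjusted p = 0.000132), of which the CD34- call ended with the index in the fit (0.71, adjusted p = 0.0912). Brca2, a breast cancer tumour suppressor of the recombination pathway, was not called: 8.96 ± 0.14 in CD70TG and 8.69 ± 0.10 in control CD34- arrays (SD, n = 4; adjusted p = 0.0549), and 8.81 ± 0.12 in CD70TG and 8.64 ± 0.07 in control CD34+ arrays (adjusted p = 0.26). Rad51ap1, a recombination factor, was not called either, with differences of 0.01 (adjusted p = 0.962) and 0.25 (adjusted p = 0.0656).

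Exo1, the exonuclease that resects ends and also serves mismatch repair, depended on the probe. Its brightest probe, near background, differed by 0.02 (adjusted p = 0.876) in CD34- and -0.01 (adjusted p = 0.919) in CD34+ cells. Another kept probe was higher by 0.63 ± 0.16 (adjusted p = 0.00732 over all kept probes) and 0.62 ± 0.16 (adjusted p = 0.0139). With the mean of the kept probes, Exo1 was called in CD34+ cells at 0.30 (adjusted p = 0.0256). Which of the probes reads the Exo1 transcript was not tested.

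**Figure D2:**
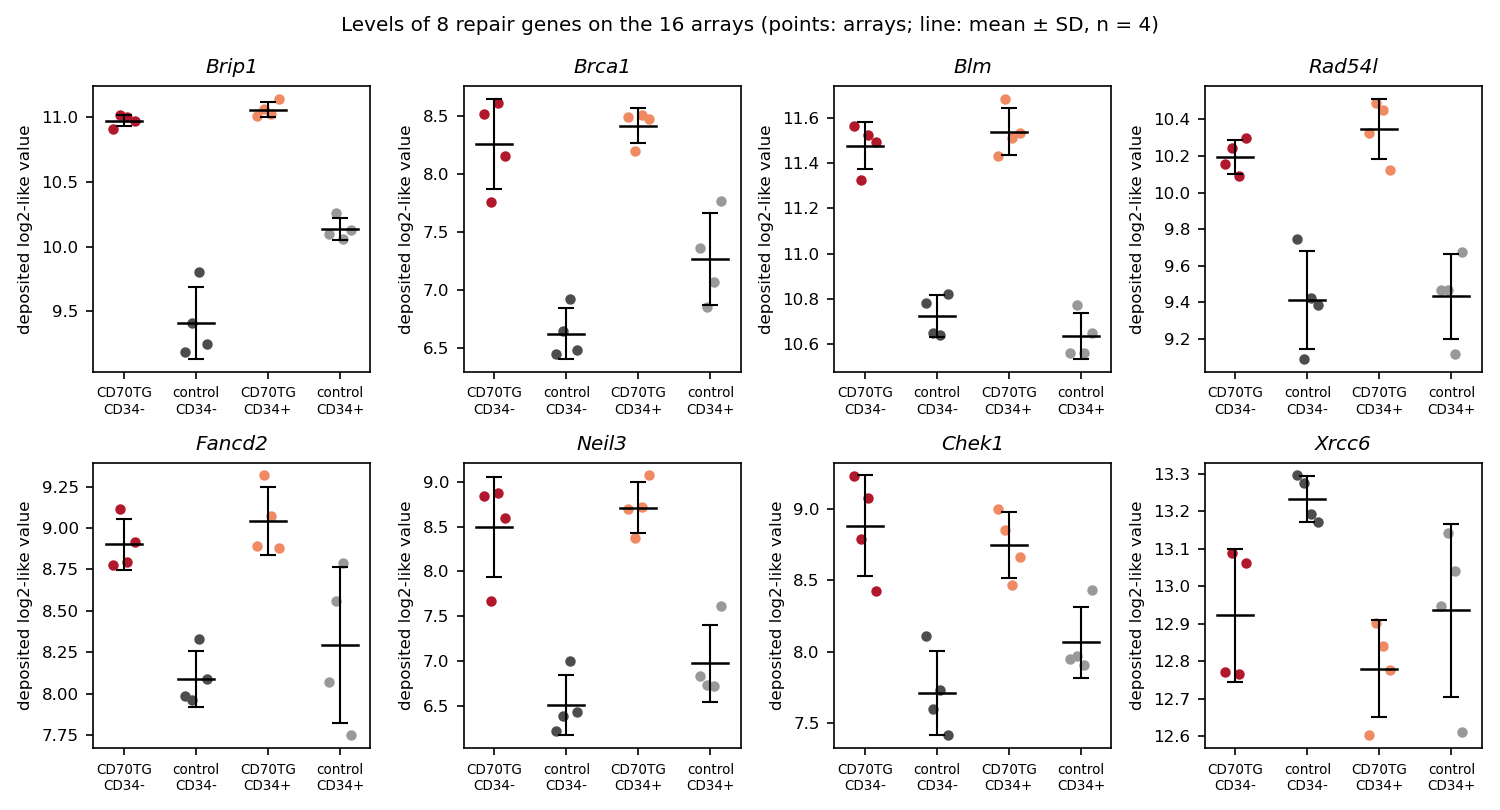
Levels on the log2-like scale of 8 called genes in every array, in CD70TG and control samples of each fraction, with points for arrays and lines for the group mean ± SD (n = 4). Values of Brip1, Blm and Brca1 in CD70TG arrays lie above every control array of the same fraction.

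In the Fanconi pathway every one of the 5 tested genes rose in both fractions. Brip1, a helicase that works with Brca1 at crosslinks, read 10.91, 11.02, 11.00 and 10.97 in CD70TG CD34- arrays, against 9.19, 9.41, 9.80 and 9.24 in control CD34- arrays. In CD34+ arrays it read 11.01, 11.07, 11.02 and 11.14 in CD70TG mice, against 10.10, 10.26, 10.06 and 10.13 in control mice. The CD70TG values of both fractions fell in a narrow band above all control values, and the differences were 1.57 ± 0.12 (adjusted p = 3.31e-08) and 0.92 ± 0.12 (adjusted p = 1.48e-05), or 1.47 and 0.85 with the index as a covariate. Fancd2, which is ubiquitinated at the lesion together with Fanci, read 8.78, 9.12, 8.80 and 8.91 in CD70TG CD34- arrays, against 7.99, 7.96, 8.33 and 8.09 in control CD34- arrays. It read 8.89, 9.32, 9.08 and 8.88 in CD70TG CD34+ arrays, against 8.07, 8.56, 8.79 and 7.75 in control CD34+ arrays. No values overlapped, and the differences of 0.81 ± 0.18 (adjusted p = 0.0025) and 0.75 ± 0.18 (adjusted p = 0.00684) were 1.499 and 1.23 with the index as a covariate.

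Fanci, the partner of Fancd2, read 7.16, 6.85, 6.81 and 7.11 in CD70TG CD34- arrays, against 6.60, 6.54, 6.62 and 6.85 in control CD34- arrays. Its CD34+ values were 7.008, 7.094, 7.0 and 6.854 in CD70TG arrays, against 6.587, 6.528, 6.623 and 6.509 in control arrays. Control CD34- replicate 4 reached the lower CD70TG values, while the CD34+ groups were apart, and the differences were 0.33 ± 0.09 (adjusted p = 0.00972) and 0.43 ± 0.09 (adjusted p = 0.00228). The index ended the CD34- call of Fanci (0.33, adjusted p = 0.277). Fancl, the ligase that modifies both partners, read 9.119, 8.954, 9.031 and 9.004 in CD70TG CD34- arrays, against 8.24, 8.17, 8.41 and 8.28 in control CD34- arrays. Fancl in CD34+ cells read 9.47, 9.23, 8.82 and 9.31 in CD70TG arrays, against 8.69, 8.70, 8.34 and 9.21 in control arrays. The CD34+ groups overlapped, and the differences were 0.75 ± 0.16 (adjusted p = 0.00155) and 0.47 ± 0.16 (adjusted p = 0.0431). Leaving out 1 array ended the CD34+ call of Fancl in 9 of 16 cases (replicates 1, 2 and 4 of CD70TG CD34+, 1, 2 and 3 of control CD34+, 3 and 4 of CD70TG CD34- and 1 of control CD34- arrays; adjusted p up to 0.159), and the index as a covariate ended it in both fractions. Fancc, part of the core complex, averaged 7.59 ± 0.14 in CD70TG and 7.24 ± 0.10 in control CD34- arrays, and 7.75 ± 0.08 in CD70TG and 7.30 ± 0.04 in control CD34+ arrays (SD, n = 4), without overlap (0.35, adjusted p = 0.00713, and 0.45, adjusted p = 0.00149), a call the index ended in both fractions. The core complex gene Fancg stayed below the filter, at 6.34 ± 0.08 in CD70TG and 6.28 ± 0.11 in control CD34- arrays (SD, n = 4).

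Brip1, Blm, Brca1 and Bard1 were picked as examples from the 13 genes that rose in both fractions. The 250 bases before their RefSeq starts (GRCm38.p6) are shown 5′ to 3′. Capitals mark CCAAT boxes (CCAAT, or ATTGG on the other strand), E2F words (TTTCCCGC, TTTCGCGC, TTTGCCGC or TTTGGCGC) and cell cycle homology regions (CHR, TTTGAA), searched on both strands.
Brip1, chr11:86201194-86201443, minus strand: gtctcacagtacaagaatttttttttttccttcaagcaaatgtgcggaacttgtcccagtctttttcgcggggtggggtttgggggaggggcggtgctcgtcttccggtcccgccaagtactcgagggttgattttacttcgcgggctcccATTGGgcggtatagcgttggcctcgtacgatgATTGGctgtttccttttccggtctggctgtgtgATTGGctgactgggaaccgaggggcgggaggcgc
Blm, chr7:80534999-80535248, minus strand: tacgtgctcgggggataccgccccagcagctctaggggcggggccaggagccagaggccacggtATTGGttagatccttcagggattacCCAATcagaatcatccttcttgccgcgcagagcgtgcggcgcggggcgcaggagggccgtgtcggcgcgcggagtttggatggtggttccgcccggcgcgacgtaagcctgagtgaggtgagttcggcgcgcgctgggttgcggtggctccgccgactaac
Brca1, chr11:101551956-101552205, minus strand: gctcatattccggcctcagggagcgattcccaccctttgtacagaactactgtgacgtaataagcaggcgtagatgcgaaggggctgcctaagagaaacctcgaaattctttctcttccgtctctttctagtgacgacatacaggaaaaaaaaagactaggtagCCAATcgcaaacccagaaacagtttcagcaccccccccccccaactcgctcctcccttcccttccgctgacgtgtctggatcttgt
Bard1, chr1:71102973-71103222, minus strand: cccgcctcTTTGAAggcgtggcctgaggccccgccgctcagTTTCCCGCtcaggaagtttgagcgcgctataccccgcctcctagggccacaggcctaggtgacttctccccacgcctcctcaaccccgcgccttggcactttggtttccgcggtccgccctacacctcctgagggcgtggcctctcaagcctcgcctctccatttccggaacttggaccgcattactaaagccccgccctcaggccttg
Brip1 holds 3 CCAAT boxes, Blm 2 and Brca1 1, and Bard1 holds 1 E2F word and 1 CHR. Of the 13 genes that rose in both fractions, Rad54l, Mre11a and Fancc also held a CCAAT box. The rest had no match or no window. Of the 40 repair genes with a window, 21 held a CCAAT box, 8 an E2F word and 1 a CHR, beside 33.8%, 1.86% and 16% of 32851 RefSeq windows of the same length. No matches of these motifs overlapped each other. Of the 15 genes with a window that rose in a genotype comparison, 8 held a CCAAT box and 2 an E2F word, and of the 16 other tested genes with a window, 8 and 4 did. The windows were not matched on base composition, and a match is a description of letters, not of a bound site.

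Of 4 tested damage signalling genes, Chek1 rose in both fractions, Chek2 rose and Trp53bp1 fell in CD34- cells alone, and Atm was not called. Chek1, the kinase that acts below Atr at stalled replication forks, read 9.23, 8.79, 9.08 and 8.43 in CD70TG CD34- arrays, against 8.11, 7.60, 7.73 and 7.41 in control CD34- arrays. In CD34+ arrays it read 9.0, 8.854, 8.467 and 8.66 in CD70TG mice, against 7.95, 7.97, 7.91 and 8.43 in control mice. All CD70TG values lay above all control values of the fraction, narrowly in CD34+ cells, with differences of 1.17 ± 0.18 (adjusted p = 0.000124) and 0.68 ± 0.18 (adjusted p = 0.0132). Another probe gave 0.72 and 0.51, the index ended both calls, and leaving out CD70TG CD34+ replicate 1 ended the CD34+ call (adjusted p = 0.0554). Chek2, the kinase below Atm, read 8.13, 8.35, 7.86 and 8.02 in CD70TG CD34- arrays, against 7.77, 7.84, 7.75 and 7.68 in control CD34- arrays. These ranges touched nowhere, and the difference was 0.33 ± 0.10 (adjusted p = 0.0203), a call that ended in 3 of 16 fits without 1 array (CD70TG CD34- replicates 1 and 2, control CD34- replicate 4; adjusted p up to 0.0701). In CD34+ cells Chek2 averaged 8.17 ± 0.07 in CD70TG and 8.003 ± 0.06 in control arrays (SD, n = 4), a difference of 0.17 ± 0.10 (adjusted p = 0.284).

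Trp53bp1, which protects broken ends and favours end joining, read 11.05, 11.73, 11.28 and 11.42 in CD70TG CD34- arrays, against 12.00, 11.97, 11.81 and 11.36 in control CD34- arrays. It read 11.19, 11.37, 11.35 and 11.31 in CD70TG CD34+ arrays, against 11.83, 11.70, 11.91 and 11.48 in control CD34+ arrays. Control CD34- replicate 4 lay among the CD70TG values, and the CD34+ groups were apart. The differences of -0.42 ± 0.15 (adjusted p = 0.0442) and -0.42 ± 0.15 (adjusted p = 0.056) stood on either side of the threshold, another probe gave 0.01 and -0.11, and the CD34- call ended in 12 of 16 fits without 1 array (adjusted p up to 0.16), all except those without CD70TG CD34- replicate 2, control CD34- replicate 4 or control CD34+ replicate 3 or 4. The CD34+ difference was called without CD70TG CD34- replicate 1 or 2, control CD34- replicate 4 or control CD34+ replicate 4 (adjusted p down to 0.0242). Atm, the kinase that senses broken ends, differed by 0.26 ± 0.15 (adjusted p = 0.205) in CD34- and 0.17 ± 0.15 (adjusted p = 0.46) in CD34+ cells.

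Base excision repair showed rises of single glycosylases and of the abasic-site endonuclease. Neil3, a glycosylase for oxidised bases that is known from proliferating cells and from crosslink repair, read 8.84, 7.67, 8.87 and 8.59 in CD70TG CD34- arrays, against 6.222, 6.382, 6.998 and 6.434 in control CD34- arrays. In CD34+ cells it read 8.69, 8.37, 8.72 and 9.07 in CD70TG arrays, against 6.84, 6.73, 6.72 and 7.61 in control arrays. The groups were separated in both fractions, and the differences of 1.98 ± 0.25 (adjusted p = 1.31e-05) and 1.74 ± 0.25 (adjusted p = 7.22e-05) were the largest among the 38 genes. With the probe discordance index in the fit they were 0.60 (adjusted p = 0.0558), which ended the CD34- call, and 0.76 (adjusted p = 0.00163). Neil3 lay above background on 2 of 4 control CD34- arrays. Ung, the uracil glycosylase, read 11.81, 11.69, 11.39 and 11.19 in CD70TG CD34- arrays, against 10.93, 10.98, 10.68 and 10.60 in control CD34- arrays. It read 11.89, 11.59, 11.40 and 11.27 in CD70TG CD34+ arrays, against 10.88, 11.00, 10.76 and 11.30 in control CD34+ arrays. Only the CD34+ groups overlapped, and the differences were 0.72 ± 0.16 (adjusted p = 0.00217) and 0.55 ± 0.16 (adjusted p = 0.0197), with dimmer probes not called and both calls ended by the index. The CD34+ call of Ung also ended in 3 of 16 fits without 1 array (control replicates 1 and 3 and CD70TG replicate 1 of the CD34+ fraction; adjusted p up to 0.0858).

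Apex1, the endonuclease that cuts abasic sites, read 10.54, 10.06, 10.04 and 10.07 in CD70TG CD34- arrays, against 10.20, 10.29, 9.84 and 9.97 in control CD34- arrays. In CD34+ arrays Apex1 read 10.52, 10.19, 10.39 and 10.33 in CD70TG mice, against 9.98, 9.73, 9.58 and 10.04 in control mice. Its groups overlapped in CD34- cells (0.10 ± 0.14, adjusted p = 0.638) and were apart in CD34+ cells (0.53 ± 0.14, adjusted p = 0.0132). Leaving out CD70TG CD34+ replicate 1 or control CD34+ replicate 3 ended that call (adjusted p up to 0.0565), as did the index. Lig3, the ligase that seals the repaired strand, was called in CD34- cells, with 9.81, 9.69, 9.59 and 9.36 in CD70TG CD34- arrays, against 9.30, 9.12, 9.02 and 9.21 in control CD34- arrays. Its CD34- groups were apart (0.45 ± 0.13, adjusted p = 0.0136), without CD70TG CD34- replicate 1 the adjusted p was 0.0536, the index ended the call (0.37, adjusted p = 0.406), and in CD34+ cells the difference was 0.12 ± 0.13 (adjusted p = 0.549). Of the other base excision genes, the break sensors Parp1 and Parp2, the scaffold Xrcc1 and the glycosylase Nthl1 were not called, with differences from -0.38 for Nthl1 to 0.23 for Parp1 in CD34- cells and from -0.22 for Nthl1 to 0.29 for Xrcc1 in CD34+ cells. Nthl1 in CD34- cells was called lower when CD70TG CD34- replicate 2 was left out (adjusted p = 0.00566). Neil1 averaged 6.15 ± 0.07 and Ogg1 6.19 ± 0.03 in CD70TG CD34- arrays, against 6.26 ± 0.18 and 6.14 ± 0.09 in control CD34- arrays (SD, n = 4), below the filter.

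End joining held the other falls. Xrcc6, of the Ku heterodimer that caps broken ends, read 12.77, 13.09, 12.77 and 13.06 in CD70TG CD34- arrays, against 13.30, 13.28, 13.19 and 13.17 in control CD34- arrays. These groups did not overlap and differed by -0.31 ± 0.11 (adjusted p = 0.047), while in CD34+ cells the difference was -0.16 ± 0.11 (adjusted p = 0.37). Another Xrcc6 probe gave 0.14 and 0.17, neither called, and the CD34- call ended in 11 of 16 fits without 1 array (adjusted p up to 0.145), all except those without replicate 2 or 4 of CD70TG CD34-, 1 of CD70TG CD34+ or 2 or 4 of control CD34+ arrays. Xrcc5, its Ku partner, read 6.07, 6.14, 6.30 and 6.06 in CD70TG CD34- arrays, against 6.15, 6.43, 6.41 and 6.52 in control CD34- arrays. The Xrcc5 groups overlapped, 4 of 16 arrays lay above background, with none in CD70TG CD34- and 2 in control CD34- cells, and the difference was -0.24 ± 0.07 (adjusted p = 0.022) in CD34- and -0.03 ± 0.07 (adjusted p = 0.829) in CD34+ cells. Against the background limits of the CD70TG arrays the CD34- difference of Xrcc5 was -0.01. Leaving out 1 array ended the Xrcc5 call in 4 of 16 cases (replicates 1 and 4 of CD70TG and 2 and 4 of control CD34- arrays; adjusted p up to 0.0805). All 3 falls of the repair genes, Xrcc5, Xrcc6 and Trp53bp1, ended with the index as a covariate (-0.22, 0.18 and 0.10). Prkdc, the end joining kinase, and Lig4, its ligase, lay near background and differed by 0.04 (adjusted p = 0.728) and -0.07 (adjusted p = 0.46) in CD34- cells.

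Of the mismatch and nucleotide excision repair genes among the 38, none was called by genotype in either fraction on its brightest probe. Calls of genes of these pathways outside the list are given below. Msh6, which recognises mismatches, averaged 13.35 ± 0.17 in CD70TG and 13.36 ± 0.07 in control CD34- arrays (SD, n = 4), a difference of -0.01 with a 95% interval of -0.21 to 0.19. In CD34+ cells Msh6 differed by -0.19 (-0.39 to 0.00). Pms2, a mismatch repair endonuclease, differed by 0.21 (-0.08 to 0.51) and 0.15 (-0.15 to 0.45), and Msh3 by 0.11 and 0.08 close to background, where another kept probe was called higher by 0.24 in CD34- cells (adjusted p = 0.00752). Of nucleotide excision, the damage verifier Xpa averaged 8.87 ± 0.12 in CD70TG and 8.88 ± 0.13 in control CD34- arrays (SD, n = 4; interval of the difference -0.27 to 0.26) and differed by 0.03 (-0.24 to 0.29) in CD34+ cells. The helicase Ercc3 differed by -0.01 (-0.23 to 0.21) and -0.10 (-0.32 to 0.12), and the nuclease subunit Ercc1 by -0.17 (-0.41 to 0.06) and 0.04 (-0.19 to 0.28). Xpc differed by 0.02 (-0.25 to 0.29) and 0.32 (0.05 to 0.59; adjusted p = 0.096). The intervals of these genes reach at most 0.59 above and 0.41 below 0.

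**Figure D3:**
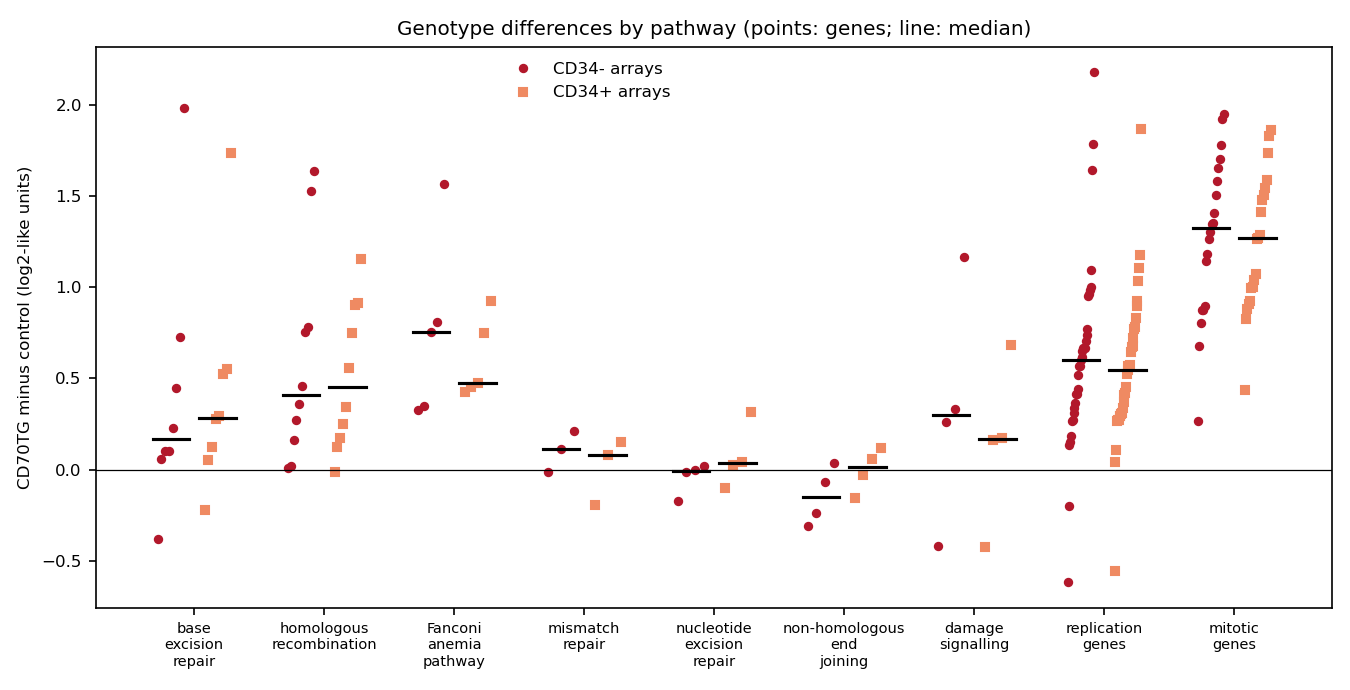
Differences on the log2-like scale (CD70TG minus control) of tested genes by pathway, with the replication and mitotic lists for comparison; points are genes and bars are medians. In CD34- cells the medians were 0.75 for Fanconi, 0.41 for recombination and -0.15 for end joining, beside 0.60 for replication and 1.33 for mitotic genes.

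Between fractions the repair genes differed in few cases. In CD70TG mice 0 of the 38 were called higher and 0 lower in CD34+ than in CD34- cells by limma, and 0 at an unadjusted p under 0.05, where 1.6% of all tested genes were higher and 4.39% lower. In control mice 3 were higher (Brip1, Brca1 and Nbn) and 1 lower (Xpc), against 3.98% and 4.33% of all tested genes, and at an unadjusted p under 0.05, 5 were higher and 2 lower. The control arrays here are those of the genotype comparisons. Brip1 was higher by 0.73 ± 0.12 (adjusted p = 0.000477) in control CD34+ than control CD34- arrays, without overlap. Its group means were 11.06 ± 0.06 in CD70TG CD34+, 10.98 ± 0.05 in CD70TG CD34-, 10.14 ± 0.09 in control CD34+ and 9.41 ± 0.28 in control CD34- arrays (SD, n = 4). Brca1 was higher by 0.64 ± 0.19 (adjusted p = 0.0438) and Nbn by 0.95 ± 0.27 (adjusted p = 0.0369) in control CD34+ arrays, both with overlapping groups, and these calls ended in 9 and 5 of 16 fits without 1 array (adjusted p up to 0.15 and 0.124). For Brca1 these were the fits without replicates 1 and 4 of control CD34+, 1, 3 and 4 of CD70TG CD34+, 4 of CD70TG CD34- and 1, 2 and 4 of control CD34- arrays. For Nbn they were those without replicates 1 and 4 of control CD34+ and 1, 2 and 4 of control CD34- arrays. Nbn lay above background on 1 of 4 control CD34- arrays. The probe discordance index averaged -1.18 in control CD34- and -0.42 in control CD34+ arrays. With that index in the fit, 1 of the 3 higher genes remained called.

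Xpc, which finds distorting lesions, read 9.95, 9.54, 9.35 and 9.61 in control CD34+ arrays, against 10.23, 10.39, 10.07 and 9.95 in control CD34- arrays. The groups met at 9.95 without crossing, and the difference was -0.55 ± 0.13 (adjusted p = 0.0124). In CD70TG arrays Xpc differed by -0.25 between fractions and was not called. An unequal CD70TG effect in the fractions (CD34+ minus CD34-) was called for 0 of the 38 genes (limma; 1 higher and 1 lower at an unadjusted p under 0.05), against 0.0422% higher and 0.312% lower of all tested genes. The lowest adjusted p belonged to Brip1 (-0.64, adjusted p = 0.151). Without control CD34- replicate 3 that difference was called (adjusted p = 0.00868).

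**Figure D4:**
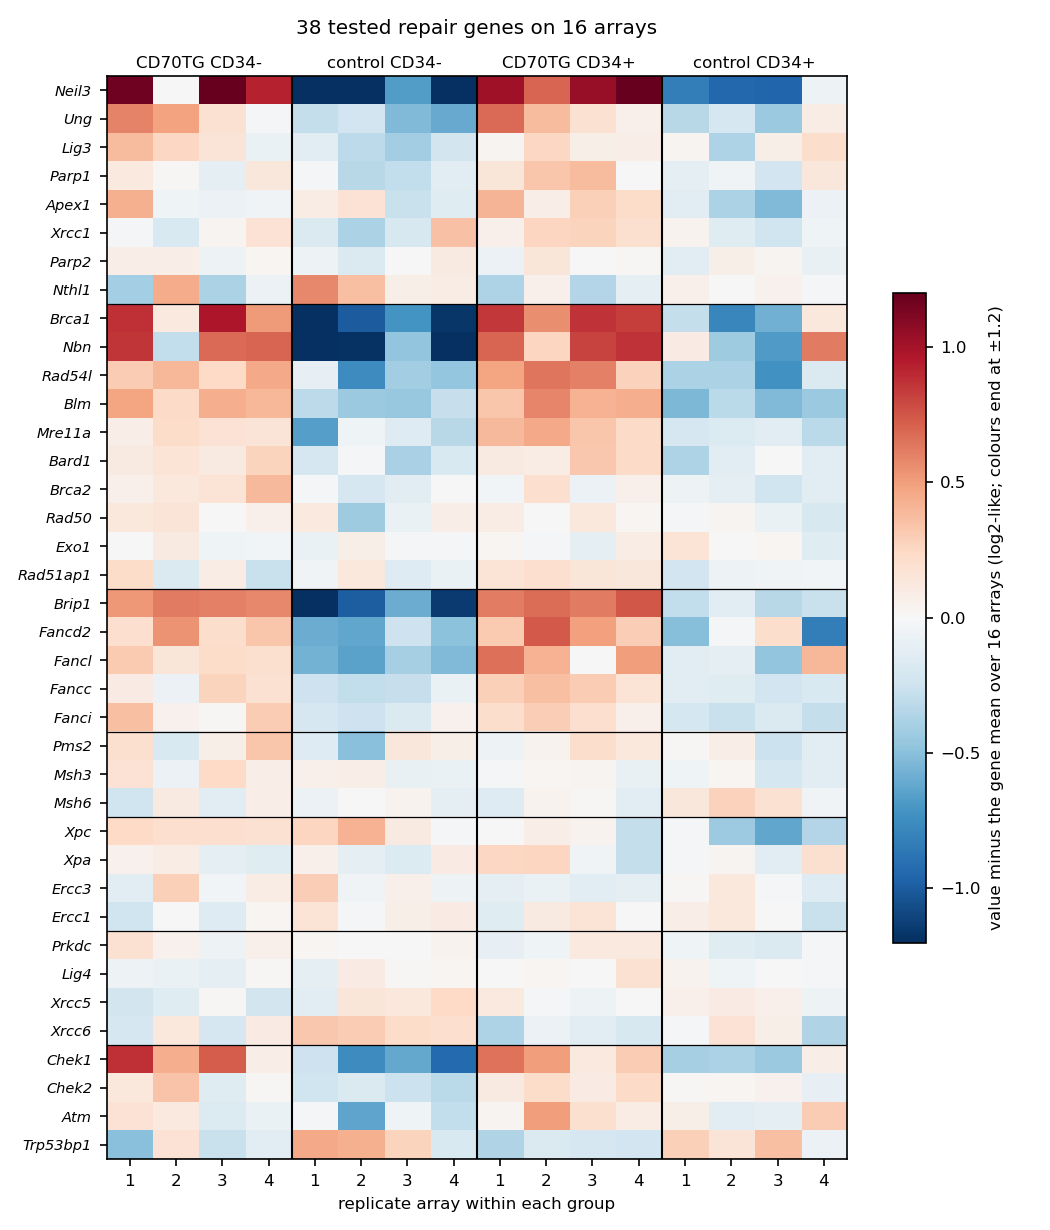
Level of each tested repair gene in every array, as the difference on the log2-like scale from the gene's mean over 16 arrays, with genes by pathway and arrays by group, each CD70TG group left of its control. Brip1, Blm, Brca1 and Rad54l are above their mean in CD70TG arrays of both fractions, and Xpc has its lowest group mean in control CD34+ arrays.

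Genes of the same pathways outside the 47 were called in part. Beside the counts of this and the next paragraph, 16% of all tested genes rose and 11.8% fell in CD34- cells. In CD34+ cells 7.57% of all tested genes rose and 10.6% fell. Whether a list differed from those shares was not tested, and counts near them do not describe a pathway. Among other recombination genes 6 of 15 tested rose and 1 fell in CD34- cells, and 4 rose and 1 fell in CD34+ cells. Rad54b, a relative of Rad54l, averaged 11.27 ± 0.16 in CD70TG and 10.15 ± 0.31 in control CD34- arrays (SD, n = 4), a difference of 1.11 ± 0.17 (adjusted p = 7.70e-05), and rose by 0.79 (adjusted p = 0.0023) in CD34+ cells. Wrn, the Werner syndrome helicase, fell by 0.50 (adjusted p = 0.0125) and 0.44 (adjusted p = 0.0334), which the index ended (0.03 and -0.08). Of 6 other Fanconi genes, Ube2t, the enzyme that hands ubiquitin to Fancl, rose by 1.57 ± 0.19 (adjusted p = 6.51e-06) in CD34- and 0.86 ± 0.19 (adjusted p = 0.00292) in CD34+ cells, and Usp1, which takes it off Fancd2, rose by 1.25 ± 0.15 (adjusted p = 1.01e-05) and 0.72 ± 0.15 (adjusted p = 0.00283). Slx4, a nuclease scaffold, fell by 0.57 (adjusted p = 0.00838) in CD34- cells and was not called in CD34+ cells. With the index in the fit, the CD34- calls of Ube2t (0.85, adjusted p = 0.045) and Usp1 (0.81, adjusted p = 0.0411) remained. Their CD34+ calls (0.35 and 0.40) and the fall of Slx4 (-0.02) ended.

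Other damage signalling genes rose in 7 of 15 tested cases and fell in 1 in CD34- cells, and rose in 6 and fell in 0 in CD34+ cells. They included Clspn, the adaptor through which Atr activates Chek1 (1.09 ± 0.11, adjusted p = 1.62e-06, and 0.95 ± 0.11, adjusted p = 9.18e-06), the fork protection pair Tipin (0.62 and 0.51) and Timeless (0.59 and 0.55), and the ubiquitin ligase Rnf168 (0.65 and 0.37). Rad17, the loader of the checkpoint clamp, fell by 0.51 (adjusted p = 0.012) in CD34- cells. The index ended the calls of Tipin and Rnf168 in both fractions and that of Rad17 (-0.16), while those of Clspn and Timeless remained in both. Of 13 other base excision and direct reversal genes, 3 rose and 1 fell in CD34- cells, and 2 rose in CD34+ cells. Mutyh, which removes adenine opposite oxidised guanine, rose in both fractions (0.70, adjusted p = 0.000629, and 0.76, adjusted p = 0.000398), and its CD34- call ended with the index (0.66, adjusted p = 0.0961). Of 10 translesion genes, 2 rose and 1 fell in either fraction, with Rad18 at 0.31 and 0.55 and the polymerase Poli at -0.76 and -0.66. With the index in the fit Poli stood at 0.05 and -0.10, neither called, and Rad18 was called in CD34+ cells (0.55, adjusted p = 0.017) and not in CD34- cells (0.32, adjusted p = 0.367). Of 12 other nucleotide excision genes, 2 rose and 2 fell in CD34- cells and 1 rose and 3 fell in CD34+ cells, and the nuclease genes Ercc4 (-0.60 and -0.53) and Ercc5 (-0.43 and -0.41) were among the falls. Cetn2, a partner of Xpc, rose in CD34- cells (0.80, adjusted p = 0.00222). Gtf2h3, of the same list, was lower in CD34+ cells (-0.48, adjusted p = 0.00797). No call of the nucleotide excision list remained with the index. With it Ercc4 stood at 0.09 and -0.05, Ercc5 at -0.25 and -0.28, Cetn2 at -0.02 in CD34- cells and Gtf2h3 at -0.44 in CD34+ cells. Of 5 other end joining genes, Paxx alone was called (-0.57, adjusted p = 0.00656, in CD34- cells), and of 2 other mismatch genes, Pms1 rose by 0.73 (adjusted p = 0.00125) in CD34- cells. Both calls ended with the index (-0.28 and 0.09).

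Genes listed here as targets of p53, the transcription factor that damage signalling activates, were called in both directions. Of 20 tested, 5 rose and 2 fell in CD34- cells, and 3 rose and 1 fell in CD34+ cells. Among all tested genes 16% rose and 11.8% fell in CD34- cells, and 7.57% rose and 10.6% fell in CD34+ cells. Whether the list differed from those shares was not tested, so the counts do not describe p53 targets as a set. Cdkn1a, the inhibitor of cyclin-dependent kinases, averaged 8.91 ± 0.18 in CD70TG and 8.12 ± 0.33 in control CD34+ arrays (SD, n = 4), a difference of 0.79 ± 0.15 (adjusted p = 0.00114). Tigar rose by 0.23 (adjusted p = 0.0152) and 0.37 (adjusted p = 0.000817). Bbc3, the cell death gene also called Puma, averaged 9.22 ± 0.17 in CD70TG and 9.59 ± 0.03 in control CD34- arrays, and 9.60 ± 0.13 in CD70TG and 10.12 ± 0.08 in control CD34+ arrays (SD, n = 4). It fell by 0.37 (adjusted p = 0.0108) and 0.52 (adjusted p = 0.00149). Ccng2, whose control by p53 was not tested, rose by 1.39 (adjusted p = 3.79e-05) and 0.62 (adjusted p = 0.0313), and the index ended both calls. It also ended both calls of Bbc3 and the CD34- call of Tigar, while the CD34+ calls of Tigar (0.33, adjusted p = 0.0386) and Cdkn1a (1.11, adjusted p = 0.000417) remained.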

How the data were processed

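RNA of 16 sorted pools was amplified in repeated rounds, labelled with biotin and hybridised to Illumina bead arrays, per the labels' protocols. The authors' deposited log2-like values (25697 probes) were used as they stand. Their range and array medians of 6.427 to 6.531 are those of log values on a common scale, and no source used here gives the log base, background correction or normalization. A table of 32 further value columns was left out, since no sample label matches its column names.

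A probe was kept when it exceeded the array's mode by 1.64 SD of background on at least 4 arrays (15551 probes). The brightest kept probe stood for a gene, named through the platform annotation. Groups were fitted with limma 3.58.1 (R 4.3.3; lmFit on 4 group means, eBayes with trend, Benjamini-Hochberg over 11849 features, threshold 0.05). Pools were treated as separate samples, also between fractions, and their number limits precision. On simulated data for genotypes in CD34- cells (11849 genes), 61% of 100 genes changed by 0.5 and 96% of 100 changed by 1 were recovered, and 3.09% of calls were false. The simulated noise was independent between genes, without the shared array-to-array pattern of the real arrays. These percentages therefore describe the fit and not the error rate in the real data. Within groups, arrays correlated at 0.986 to 0.996 over probes, and no pair shared over 0.288% identical values.

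Members, context lists, markers and tests were chosen with earlier results of these data known. Genes of the other repair and p53 lists were named by a rule: up to 4 called genes with the smallest p in a genotype comparison and up to 2 called the opposite way. For some lists fewer genes were named than the rule allows. Promoter windows came from RefSeq, GRCm38.p6, 250 bases before a start. Alternatives were the dim-probe filter, mean of kept probes, arrays compared only, replicate block, array weights, a minimum fold of 1.2, 2 rescalings, the probe discordance index and leaving out each array. Leaving out both arrays that stood apart was added after seeing the data.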

Additional observations from a re-analysis of the deposited data

Results flagged for a closer look

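Of 152 sets of 4 arrays (38 genes in 4 groups), 8 held 1 array set apart from the other arrays of its group by more than 0.829 of the group's range, where chance flags about 1 in 20 sets. Control CD34+ replicate 4 was high for Neil3 (7.61, the other arrays 6.72 to 6.84) and for Chek1 (8.43, the others 7.91 to 7.97). CD70TG CD34- replicate 2 was low for Nbn (7.26, the others 8.23 to 8.42), and control CD34- replicate 3 was high for it (7.08, the others 6.25 to 6.37). CD70TG CD34+ replicate 2 was low for Brca1 (8.19, the others 8.47 to 8.51). CD70TG CD34- replicate 1 was high for Apex1 (10.54, the others 10.04 to 10.07), CD70TG CD34+ replicate 4 was high for Lig4 (6.77, the others 6.58 to 6.61), and control CD34+ replicate 1 was low for Rad51ap1 (6.40, the others 6.58 to 6.61).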

How the results depend on the processing

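In CD34- cells the count of 16 genes higher in CD70TG mice was 10 against a minimum fold of 1.2, 5 with the probe discordance index and 14 to 16 without 1 array. The 3 lower genes were 1 without the dim-probe filter and with the mean of kept probes, 0 with only the arrays compared, with the minimum fold and with the index, and 0 to 4 without 1 array. In CD34+ cells the 14 higher genes were 5 with the minimum fold, 9 with the index and 10 to 16 without 1 array. The count of 0 lower genes was 1 with the stricter filter, only the arrays compared, a fixed replicate block, array weights, quantile normalization, equal array medians and both arrays that stood apart left out, and 0 to 1 without 1 array. Between fractions in CD70TG mice, 1 gene was lower with array weights (0 to 0 without 1 array in either direction). In control mice the 3 higher genes were 1 with only the arrays compared, array weights, the minimum fold or the index (1 to 4 without 1 array), and the 1 lower gene was 0 with only the arrays compared or the minimum fold (1 to 1 without 1 array). The difference between fractions was called in 0 to 1 genes lower and 0 to 0 higher without 1 array. Signs turned for Xrcc6 (0.18) and Trp53bp1 (0.10) in CD34- cells with the index, and for Exo1 in CD34+ cells with the mean of kept probes (0.30). The cause of these changes was not tested. Array numbers did not pair the samples throughout (same-numbered correlations -0.33 to 0.65, 10 of 24 over 0.1, 7 of 24 best with their own number). Between the fractions of CD70TG mice, replicates 1 and 2 correlated best with their own number (0.44 and 0.65). Replicates 3 and 4 did not (-0.03 and 0.16), nor did any control replicate between fractions (-0.31 to 0.11). Whether the fractions shared mice was not tested. With a random replicate block (correlation 0.02) no call changed. Dim probes limit Bard1, Exo1, Fanci, Msh3, Xrcc5, Prkdc, Lig4 and Rad51ap1.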
